A study of Mus musculus with 2 samples.

Results

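The genes described here are 10 members of the neuropilin, semaphorin and plexin families in mouse induced regulatory T (iTreg) cells, namely the neuropilins Nrp1 and Nrp2, the semaphorins Sema4a, Sema4b, Sema4c, Sema4d and Sema7a, and the plexins Plxna1, Plxnb2 and Plxnd1. They were chosen by gene symbol, as 10 of 23282 rows of the deposited expression tables, and the values of these libraries were known when they were chosen. All 10 were present in the tables and all 10 had enough reads to be compared. Both samples came from wild-type (WT) naïve CD4+ T cells of young adult female C57BL/6 mice, activated with anti-CD3ε and anti-CD28 and cultured for 1 day with IL-2, TGF-β1 and antibodies against IFN-γ and IL-4, which are Treg-inducing conditions. The control culture received the vehicle DMSO, and the treated culture received 10 μM Tubastatin A (TSA), an inhibitor of the deacetylase HDAC6. This TSA is not trichostatin A, which shares the abbreviation. There was 1 library per condition, so no difference given below has a replicate check.

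Semaphorins are secreted or membrane-bound proteins that were found as guidance cues for growing axons and that also act between cells of the immune system. Plexins are their main receptors, and the cytoplasmic part of a plexin switches off small GTPases of the R-Ras and Rap type, which changes cell adhesion and the actin skeleton. Neuropilins have a short cytoplasmic tail and act as coreceptors, for plexins with class 3 semaphorins and for VEGF receptors with VEGF. In T cells, Nrp1 is best known as a surface protein of Treg cells from the thymus, where Sema4a is one of its ligands.

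QuantSeq, the kit used for both libraries, reads each polyadenylated transcript near its 3′ end, so that a captured molecule gives about 1 read whatever its length. Levels of different genes are therefore compared below as reads, without division by length. Reads were recovered from the deposited values, which are log2 of a normalized count plus 1, and over all genes they came to 10845868 (control) and 10432698 (TSA). Fold changes are TSA over control on the deposited scale, whose added count of 1 makes the change of genes with few reads look smaller than it was. The 95% intervals beside them are exact (Clopper-Pearson), were computed from the reads of the gene in both libraries, and set these libraries against each other rather than the conditions. They hold counting error alone. As reads copied by PCR were not marked, the intervals may be too narrow even for that.

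The labelled cell type was checked against marker genes. T cell markers were abundant in both libraries, with 13992 control and 14625 TSA reads over 6 genes, and the Treg genes Foxp3, Il2ra, Ctla4 and Ikzf2 had 12057 and 9927 reads. Most of the latter were of Il2ra (8851 and 7512), followed by Foxp3 (1633 and 965), Ctla4 (1051 and 933) and Ikzf2 (522 and 517). Markers of cells that could be left over from the spleen were scarce. B cell markers had 12 and 15 reads over 5 genes (Pax5 at 0 in both libraries), markers of macrophages and dendritic cells had 62 and 73 reads over 7 genes (Itgax and Adgre1 at 0 in the TSA library, Flt3 at 0 in the control and at 33 reads in the TSA library), and endothelial markers had 0 and 6 reads over 3 genes. Platelet markers had 46 and 50 reads over 3 genes, CD8 T cell markers 80 and 87 over 2 genes, erythroid markers 14 and 26 over 2 genes (of which 1 went from 4 reads to 17, more than counting error), NK cell markers 0 and 1 over 2 genes, and neutrophil markers 4 and 0 over the 2 genes measured. The plasmacytoid dendritic cell marker Siglech was at 0 in both libraries, while Bst2, an interferon-induced gene that T cells also express, had 343 and 236 reads. The part of such cells in the results below was not tested.

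Sema4d and Sema7a were the most abundant of the 10 genes in both libraries, and Nrp1 came after them. In the control library the order was Sema4d (1017 reads), Sema7a (846), Nrp1 (576), Plxnd1 (148), Sema4c (103), Plxna1 (98), Sema4b (97), Nrp2 (22), Sema4a (18) and Plxnb2 (17). Within the runs of Sema4c, Plxna1 and Sema4b and of Nrp2, Sema4a and Plxnb2, neighbours in this order did not differ beyond counting error. In the TSA library Sema7a (988) and Sema4d (941) were level within counting error, followed by Nrp1 (281), Plxnd1 (128), Sema4b (115), Plxna1 (105), Sema4c (74), Sema4a (59), Plxnb2 (38) and Nrp2 (12). Here the neighbours that did not differ beyond counting error were Plxnd1, Sema4b and Plxna1 in turn, and Sema4c and Sema4a. Sema4a and Plxnb2 thus stood level with Nrp2 within counting error in the control library and above it in the TSA library.

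**Figure D1:**
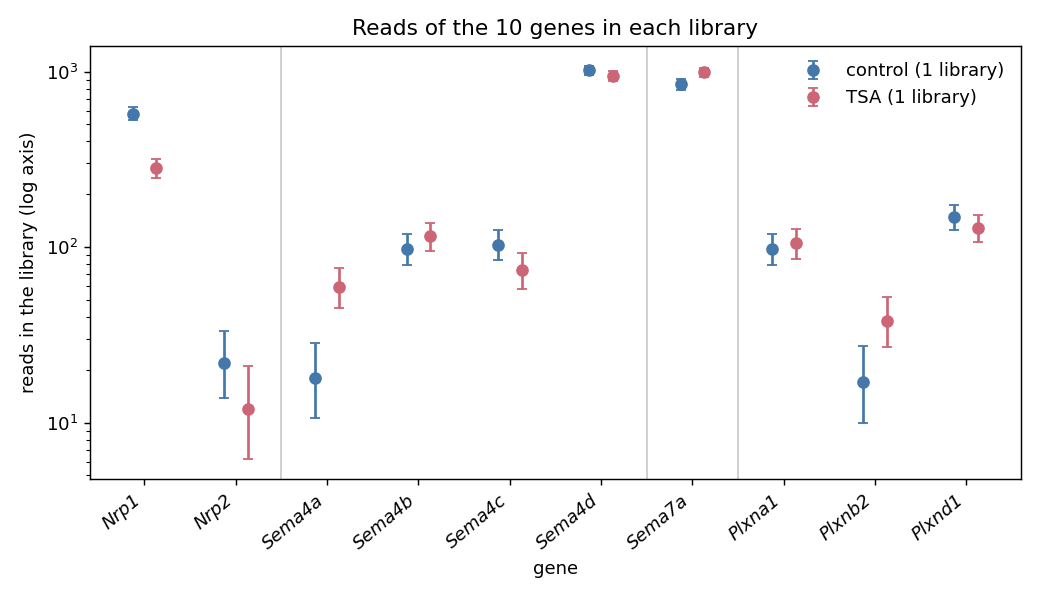
Reads of the 10 genes in the control (blue) and TSA (red) library, on a log axis, with 1 library per condition and bars for the exact Poisson 95% interval of each count. Grey lines separate neuropilins, class 4 semaphorins, Sema7a and plexins. Nrp1 was at 576 and 281 reads, Sema4a at 18 and 59.

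Nrp1 was the gene of the 10 with the largest loss of reads. From 576 control reads and 281 TSA reads, its fold change was 0.484 (95% interval 0.417 to 0.558). Nrp2, which binds VEGF-C and the class 3 semaphorin Sema3f, had 22 and 12 reads and a fold change of 0.5598 (0.244 to 1.14). The counts of both neuropilins were thus lower in the TSA library, Nrp1 by more than counting error and Nrp2 not. Nrp1 made up 96.3% of neuropilin reads in the control library (exact binomial 95% interval 94.5 to 97.7) and 95.9% in the TSA library (92.96 to 97.9), so the share of Nrp2 was small in both. Of all tested genes, 2.78% had a lower log2 fold change than Nrp1. In bulk RNA, fewer cells that express a gene and less RNA per cell cannot be told apart. Beside Nrp1, the Treg genes of the marker list had log2 fold changes of -0.77 (Foxp3), -0.25 (Il2ra), -0.19 (Ctla4) and -0.03 (Ikzf2, which encodes Helios, another marker of thymic Treg cells, with 522 and 517 reads).

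The 250 bases before the RefSeq start of both neuropilin genes are shown because the reads of both were lower, Nrp2 having been added after its value was seen. They are on the plus strand of GRCm38, at chr8:128358823-128359072 for Nrp1 and chr1:62703067-62703316 for Nrp2, and capitals mark the motifs searched:
Nrp1: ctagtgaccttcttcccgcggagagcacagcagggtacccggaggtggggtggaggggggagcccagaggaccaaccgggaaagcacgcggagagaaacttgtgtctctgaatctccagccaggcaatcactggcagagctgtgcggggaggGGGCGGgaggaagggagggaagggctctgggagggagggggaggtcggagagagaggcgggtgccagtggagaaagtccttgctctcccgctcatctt
Nrp2: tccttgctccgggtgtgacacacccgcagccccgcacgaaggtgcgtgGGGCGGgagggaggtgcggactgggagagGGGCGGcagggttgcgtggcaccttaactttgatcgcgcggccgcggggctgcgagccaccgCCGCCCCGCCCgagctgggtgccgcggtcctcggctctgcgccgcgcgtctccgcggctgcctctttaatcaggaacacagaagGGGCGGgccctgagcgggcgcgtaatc
The motifs were GGGCGG (GC box), TGANTCA (AP-1), GTAAACA (forkhead), CAGACA (SMAD) and GGAAAA (NFAT), read on both strands with overlaps allowed. The Nrp1 window held 1 match and the Nrp2 window 5, all to the GC box, which 32.7% of 32851 windows of the same length contain. The windows are rich in G and C, at 64.4% for Nrp1 and 72.4% for Nrp2, against a median of 52.4% over all windows.

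Sema4a, a membrane-bound semaphorin of dendritic cells and activated T cells that binds Nrp1, Plxnd1 and B-type plexins, had the highest fold change of the 10. From 18 control reads and 59 TSA reads, its fold change was 3.13 (1.89 to 5.85). The difference exceeded counting error, but its interval reached below 2-fold. Beside it, the dendritic cell gene Flt3 had 0 and 33 reads, while the other 6 markers of macrophages and dendritic cells summed to 62 and 40 reads, with Itgax at 4 and 0. The naïve CD4+ T cells had been purified from spleen with a magnetic isolation kit, a step meant to remove such cells, and their part in the difference was not tested. For each Sema4a read there were 32 Nrp1 reads in the control (95% interval 20.1 to 54.4) and 4.76 in the TSA library (3.59 to 6.42), which restates the changes of both genes. Sema4a held 0.865% of the reads of the 5 semaphorins in the control library (0.513 to 1.36) and 2.71% in the TSA library (2.07 to 3.48).

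Sema4d, also called CD100, is the main class 4 semaphorin of resting T cells and binds Plxnb1 and CD72. It had 1017 control and 941 TSA reads, 0.916-fold (0.838 to 1.002), which did not exceed counting error. Sema4c, a ligand of Plxnb2, went from 103 reads to 74, a fold change of 0.714 (0.5204 to 0.968), and was lower by more than counting error. With the libraries scaled by total reads its interval included no change (0.747, 0.546 to 1.02). Sema4b, another membrane-bound class 4 semaphorin, had 97 control and 115 TSA reads, 1.17-fold (0.888 to 1.55). Class 4 semaphorins thus had no common direction, with Sema4a and Sema4b higher in count and Sema4c and Sema4d lower. Sema7a, which is held in the membrane by a lipid anchor and binds Plxnc1 and the integrin subunit Itgb1, had 846 and 988 reads. Its fold change of 1.16 (1.05 to 1.27) was small but exceeded counting error. Sema4d and Sema7a together held 89.5% of the reads of the 5 semaphorins in the control library (88.1 to 90.8) and 88.6% in the TSA library (87.2 to 89.9), so the semaphorin reads came mostly from the same 2 genes in both.

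The windows of Sema4a and Sema4b are shown as those of the gene with the highest fold change among the 10 and of the gene with the highest fold change among those with a mean normalized count of 100 or more. The first was chosen after its value was seen. Sema4a has 4 start sites in the RefSeq table and Sema4b has 2, and the most upstream is given, at chr3:88461183-88461432 on the minus strand and chr7:80186620-80186869 on the plus strand of GRCm38:
Sema4a: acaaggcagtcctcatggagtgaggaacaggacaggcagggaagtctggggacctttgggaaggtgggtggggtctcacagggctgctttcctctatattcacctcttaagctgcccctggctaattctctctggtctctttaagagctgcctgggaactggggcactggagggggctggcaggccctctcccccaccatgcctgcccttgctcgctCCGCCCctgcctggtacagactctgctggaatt
Sema4b: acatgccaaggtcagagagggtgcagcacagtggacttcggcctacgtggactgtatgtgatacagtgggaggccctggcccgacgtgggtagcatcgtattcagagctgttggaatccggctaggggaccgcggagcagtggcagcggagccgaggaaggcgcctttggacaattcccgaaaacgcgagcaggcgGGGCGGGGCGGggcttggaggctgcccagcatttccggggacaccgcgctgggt
The Sema4a window held 1 GC box and the Sema4b window 2, which overlap. Windows were found for 9 of the 10 genes, not Plxna1, and were 17 in all, and 14 of the 17 held a GC box. The AP-1, SMAD and NFAT motifs were each in 2 of the 17 (6.75%, 17.1% and 20.4% of all windows), and the forkhead motif was in none (3.17% of all windows). These matches are letters in a window and do not show binding.

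Among the plexins, the receptor of Sema4c, Plxnb2, had 17 control reads and 38 TSA reads, which is a fold change of 2.15 (1.22 to 4.18). Plxna1, which pairs with neuropilins to bind class 3 semaphorins, had 98 and 105 reads and a fold change of 1.06 (0.798 to 1.41). Plxnd1, a receptor of Sema3e and Sema4a with a role in thymocyte migration, went from 148 reads to 128, a fold change of 0.857 (0.671 to 1.09). Plxnb2 was higher by more than counting error, and the other 2 plexins differed by less than it. There were 8.71 Plxnd1 reads for each Plxnb2 read in the control library (5.26 to 15.3) and 3.37 in the TSA library (2.33 to 4.97).

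Of the 10 genes, 3 passed the 2-fold threshold of the study, Sema4a and Plxnb2 as higher and Nrp1 as lower. Because the genes were chosen with these values known, such counts describe them and test nothing. Over all 12164 tested genes, which reached 10 reads in 1 library or both, 11.5% passed 2-fold upward and 3.15% downward. The interval excluded no change for 5 of the 10 genes (3 higher and 2 lower), while it did so for 28.1% of all tested genes as higher and for 28% as lower. The median log2 fold change was -0.02 for the 10 genes and 0.015 for all tested genes. The share of higher genes depends on the level. Between mean normalized counts of 20 and 100, the range of Sema4a and Plxnb2, 18.6% passed 2-fold upward and 4.65% downward, and between 100 and 500, the range of Nrp1, the shares were 2.65% and 1.87%. Under 20, the range of Nrp2, they were 52.1% and 10.3%, and at 500 or more, the range of Sema4d and Sema7a, 0.227% and 0.707%. With the libraries scaled by total reads the log2 fold change of Nrp1 was -0.98, so that it no longer passed 2-fold, and with a pseudocount of 5 that of Plxnb2 was 0.955.

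**Figure D2:**
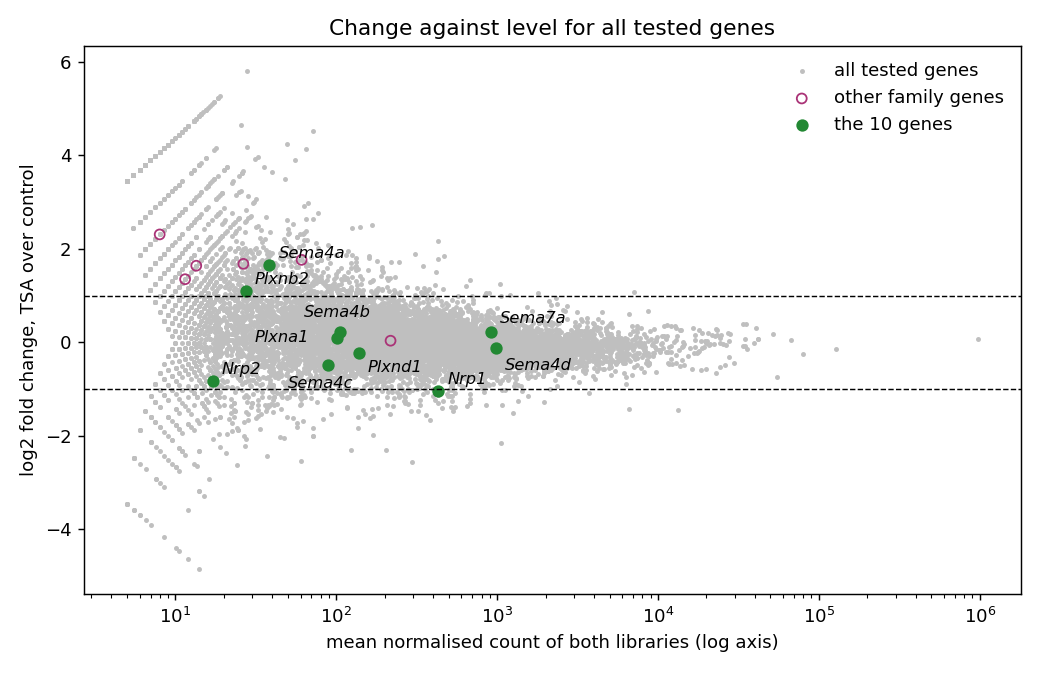
Log2 fold change (TSA over control) of every tested gene against its mean normalised count on a log axis (grey), with the 10 genes filled in green, the other 6 tested genes of the family as open circles and dashed lines at 2-fold. Sema4a and Plxnb2 lie among genes with few reads, where many grey points are above the upper line, while Nrp1 lies at a mean level where few points pass either line.

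The whole family, as a list of 31 neuropilin, semaphorin and plexin genes, had 16 genes with enough reads, of which 7 passed 2-fold upward and 1 downward, with a median log2 fold change of 0.22. Over all tested genes the shares were 11.5% and 3.15% and the median was 0.015. Outside the 10 genes, 6 were tested, and 5 of them were higher by more than 2-fold. Of these 5 genes, 3 had a mean normalized count under 20 and 2 one of 20 to 100, levels at which 52.1% and 18.6% of all tested genes passed 2-fold upward, so nothing is read from the count. Sema4f, a class 4 semaphorin, had 27 and 95 reads and a fold change of 3.39 (2.25 to 5.56), and was the gene of the family whose whole interval lay beyond 2-fold. Plxna3, a neuropilin partner like Plxna1, had 12 control and 41 TSA reads, 3.2-fold (1.74 to 7.07). Plxnb1, the high-affinity receptor of Sema4d, went from 6 reads to 21, a fold change of 3.11 (1.35 to 10.5). Sema4f and Plxna3 were higher by more than counting error. Plxnb1, Sema6d and Sema5a reached 10 reads in the TSA library alone, so they could be tested only where they were high there, and their intervals support nothing.

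Sema6d, a ligand of Plxna1, had 6 control and 17 TSA reads, 2.55-fold (1.06 to 8.69). Sema5a had 2 and 14 reads, a ratio of reads of 6.93 (1.59 to 62.8), which rests on 2 control reads. Plxnc1, the receptor of Sema7a, had more reads than any other plexin, with 214 and 221, and a fold change of 1.02 (0.843 to 1.24). The abundant plexins thus stayed within counting error of no change, and the genes past 2-fold upward had fewer than 100 reads in each library. The 3 plexins Plxnc1, Plxnd1 and Plxna1 together held 92.9% of plexin reads in the control library (90.3 to 95.03) and 80.6% in the TSA library (77.1 to 83.8).

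Among class 3 semaphorins, the secreted ligands of neuropilins, no gene had 10 reads in either library, and 4 of the 7 were at 0 in both, which at this depth allows up to 3 reads in each library. Summed over the whole family there were 3220 control and 3191 TSA reads, a ratio of 0.981 (0.934 to 1.03). The 10 genes held 91.4% of these reads in the control library (90.3 to 92.3) and 85.9% in the TSA library (84.6 to 87.1). The sum of the family therefore differed by less than counting error, while neuropilin reads were lower (598 and 293) and those of the 21 genes outside the 10 were higher (278 and 450). Without Plxnc1, the other 20 of these genes summed to 64 and 229 reads, and the tested ones had mean normalized counts under 100, where 52.1% (under 20) and 18.6% (20 to 100) of all tested genes passed 2-fold upward.

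**Figure D3:**
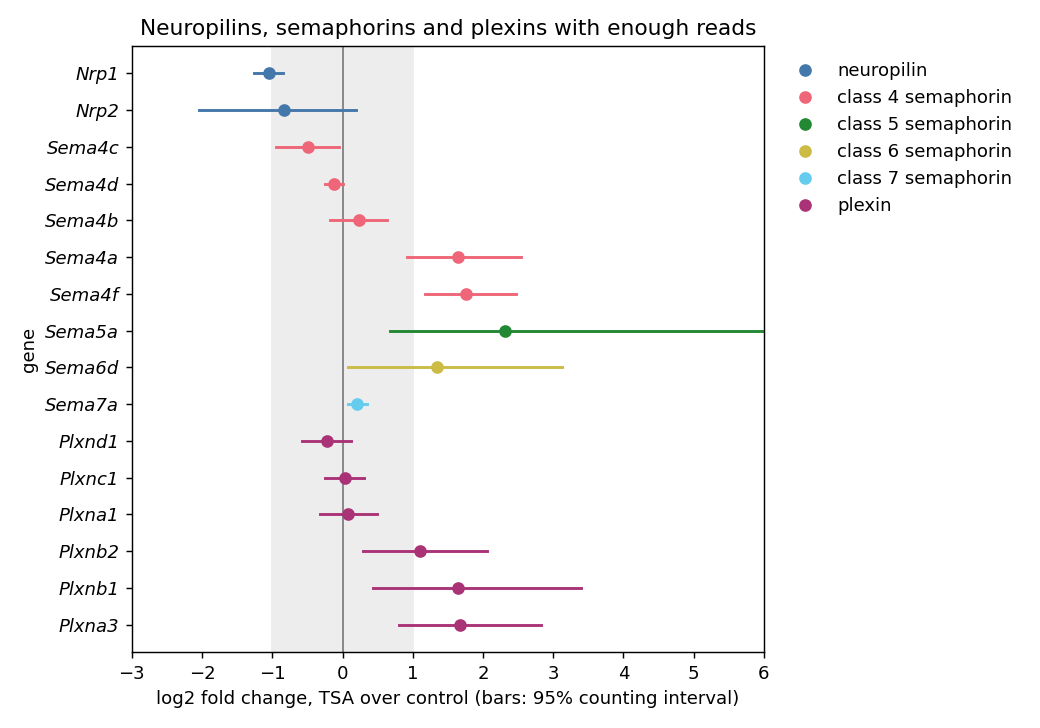
Log2 fold change (TSA over control) of the 16 neuropilin, semaphorin and plexin genes with at least 10 reads in a library, coloured by class, with bars for the 95% counting interval and grey shading within 2-fold. Nrp1 and Nrp2 lie left of 0, at -1.05 and -0.84, while Sema4a, Sema4f, Sema5a, Sema6d, Plxnb1, Plxnb2 and Plxna3 lie right of the shading. The bar of Sema5a runs to the edge of the axis.

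Genes that work with neuropilins and plexins were taken from a list of 59 ligands, coreceptors, proteases, GTPases and effectors, of which 44 had enough reads. More than 2-fold separated the libraries for 8 of them, 7 higher and 1 lower with TSA, near the shares of 11.5% and 3.15% over all tested genes. Of the 7 higher genes, 5 had a mean normalized count under 20 and 2 one of 20 to 100. At these levels 52.1% and 18.6% of all tested genes passed 2-fold upward, so nothing is read from the count. The median of their log2 fold changes over the 44 genes was 0.14, also with the control reads of genes at 0 there set at 3. Flt1, which encodes VEGF receptor 1 and takes Nrp1 as coreceptor, had no control reads and 32 TSA reads. It passed the filter through the TSA library alone. The other VEGF receptors Kdr and Flt4 had 0 control reads and 2 and 0 TSA reads. The adhesion molecule L1cam, a coreceptor of Nrp1, had 11 and 27 reads and a fold change of 2.31 (1.17 to 5.43). Among other ligands of neuropilins, Vegfa had 89 and 119 reads and Tgfb1 11 and 17, and the interval included no change for both.

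R-Ras is a GTPase that plexins switch off. Its gene Rras went from 37 reads to 94, a fold change of 2.48 (1.703 to 3.79), and the related Mras had 5 and 34 reads and a fold change of 5.77 (2.62 to 22.1). Rras2, the most abundant of these 3 Ras genes, went the other way, with 761 and 496 reads and a fold change of 0.646 (0.575 to 0.724). Rras and Rras2 thus differed in direction, each by more than counting error. Mras, like Flt1 and Mical2, passed the filter through the TSA library alone, so the intervals of these genes support nothing. Arhgef11, an exchange factor bound by B-type plexins, had 10 control and 25 TSA reads, 2.34-fold (1.15 to 5.78). Its relative Arhgef12 went from 205 reads to 264, a fold change of 1.27 (1.06 to 1.54).

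Collapsin response mediator proteins carry the semaphorin 3A signal to microtubules. Crmp1 had 21 control and 85 TSA reads, 3.87-fold (2.46 to 6.81), and Dpysl2, the abundant member, had 342 and 492 reads and a fold change of 1.42 (1.24 to 1.64). Both were higher by more than counting error. The end of Crmp1 overlaps Evc on the other strand (1 and 6 reads). Mical2, an actin-oxidizing enzyme of the plexin effector family, had no control reads and 11 TSA reads. It could be tested only where it was high, in the TSA library, so its interval supports nothing. Mical1 (349 and 405 reads) and Mical3 (134 and 120) differed by less than counting error. Fes, a tyrosine kinase that acts below Plxna1, was the gene of this list that was lower by more than 2-fold, with 56 and 22 reads and a fold change of 0.399 (0.226 to 0.647).

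The most abundant genes of the list stayed within 1.5-fold. They were Cfl1 (cofilin, 7234 and 5704 reads, fold change 0.781), Furin (3693 and 3763), Rap1b (3587 and 3647), Rhoa (2777 and 2803), Rac1 (2682 and 2860) and Fyn (1989 and 1975). Of these 6, the interval excluded no change for Cfl1 as lower and for Rac1 as higher.

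Among receptors of the abundant semaphorins outside the plexins, Itgb1 had 1123 and 1113 reads. Cd72, the lymphocyte receptor of Sema4d, was listed with 1282 and 1394 reads, but the end of Cd72 overlaps the gene Tesk1 on the other strand (1390 and 1484 reads). Whether the authors counted reads by strand is not given in the sources used here, so reads of these 2 genes cannot be told apart. The proteases Adam10 and Adam17 had 872 and 751 and 707 and 684 reads, with fold changes of 0.853 (0.772 to 0.941) and 0.958 (0.861 to 1.07).

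**Figure D4:**
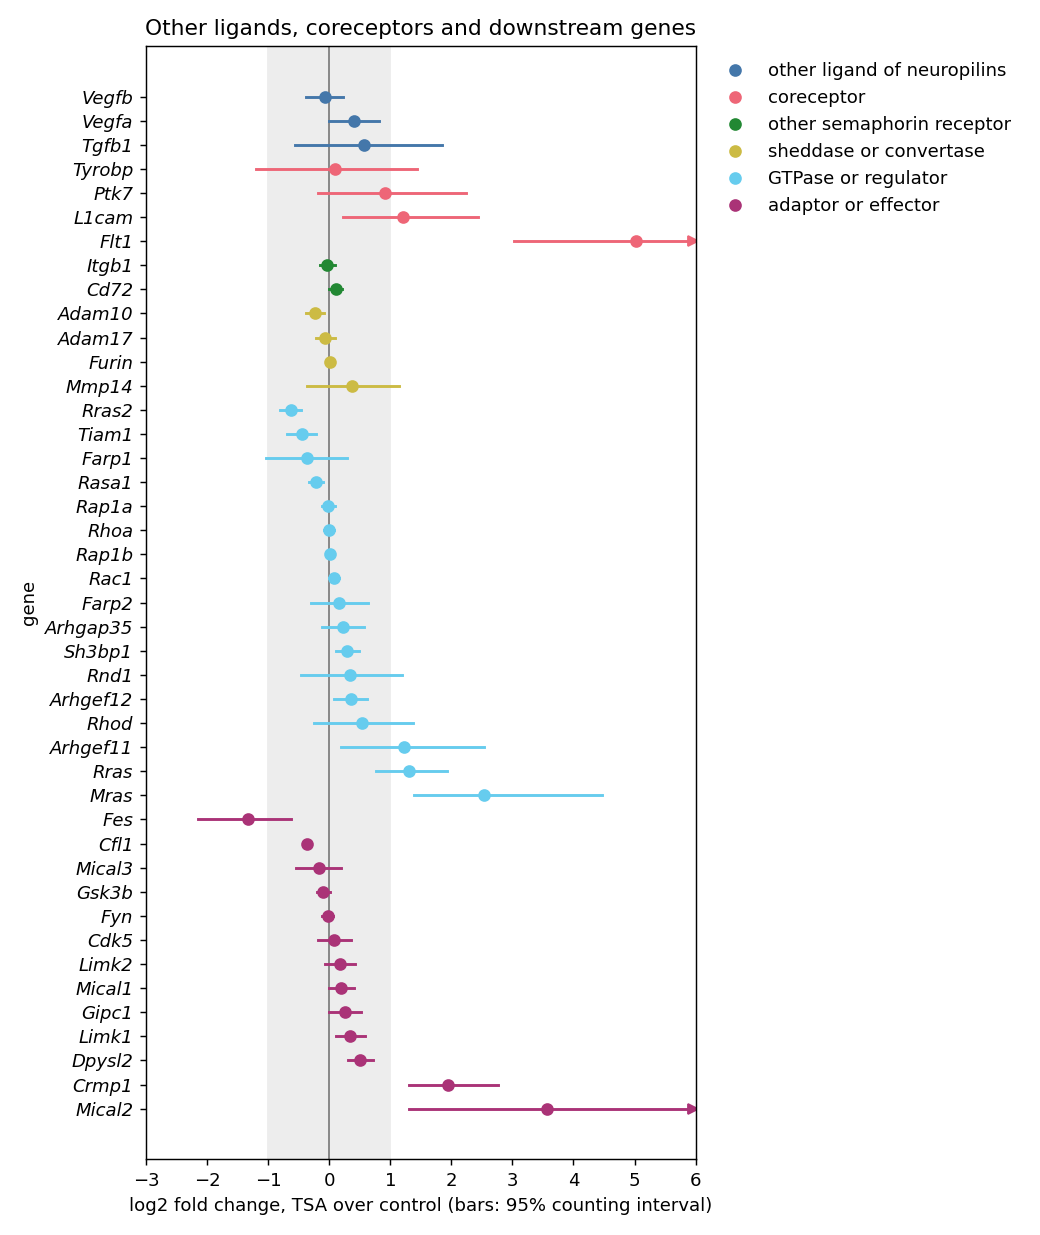
Log2 fold change (TSA over control) of 43 of the 44 tested ligands, coreceptors, proteases, GTPases and effectors, coloured by role, with bars for the 95% counting interval, arrows where the interval has no upper end and grey shading within 2-fold. Flt1, Mical2, Mras, Crmp1, Rras, Arhgef11 and L1cam lie right of the shading and Fes left of it. The points of Flt1 and Mical2 depend on the added count of 1, since their control reads were 0.

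In the GENCODE M21 annotation of GRCm38, the same assembly as the mm10 build that the submitters name, all 10 genes are protein-coding. Nrp1 (ENSMUSG00000025810.9) lies on chromosome 8 from 128358604 to 128503363 and Nrp2 (ENSMUSG00000025969.15) on chromosome 1 from 62703285 to 62818695. Sema4a lies on chromosome 3 from 88435959 to 88461182, Sema4b on chromosome 7 from 80186841 to 80226527, Sema4c on chromosome 1 from 36548639 to 36558349, Sema4d on chromosome 13 from 51685529 to 51793747 and Sema7a on chromosome 9 from 57940112 to 57962865. Plxna1 and Plxnd1 are both on chromosome 6, from 89316314 to 89362620 and from 115954811 to 115995005, and Plxnb2 is on chromosome 15 from 89155549 to 89180788. The GENCODE start of Nrp1 lies upstream of its whole window above, which so falls inside the GENCODE gene, and the windows of Nrp2 and Sema4b run into their GENCODE genes at the 3′ end. The last 500 bases of Plxna1 overlap the antisense gene Gm26811, and the ends of the other 9 genes overlap no annotated gene.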

How the data were processed

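Total RNA from 1 control and 1 TSA-treated iTreg culture was sequenced by the authors as single-end QuantSeq libraries and analysed with ExDEGA. The submitters' processing notes name Bowtie2, bedtools and mm10. The annotation and normalization are not given in the sources used here. The deposited values are log2 of a normalized count plus 1, as found from the values. Taken out of the log2 scale, they fell on steps of 1.005 (control) and 0.9951 (TSA) normalized counts per read, and among values of 5 to 300, 99.7% and 99.8% came within 0.1 of whole reads. In the control table, 1940 genes with no read are listed at up to 0.016 and were taken as 0.

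Genes that reached 10 reads in 1 library or both were compared (called tested genes). No p-value was computed, as each condition had 1 library. The 10 genes, the gene lists and the motifs were chosen with earlier results of these data known. Named are the 10 genes, the other tested genes of the family, and, from 59 partner genes, those past 2-fold and the 6 with the highest mean level. The other partner genes, and the family genes with fewer reads, were named after their values were seen. The row Nrp is another gene and was not counted. Genes of like pattern were not sought, since 2 libraries give 1 difference. Some planned items are not reported here. The planned protein comparison was not made here, as no protein table was used. Promoter windows came from a RefSeq table (GRCm38.p6). Alternatives were 4 other scalings, pseudocounts of 0.1 and 5, and other filters and thresholds. The steps were tested on simulated data and run with Python 3.11.15, numpy 2.4.6, scipy 1.17.1 and pandas 2.3.3.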

Additional observations from a re-analysis of the deposited data

How the results depend on the processing

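No paired analysis was possible because each condition had 1 library, which also left no library to drop. Each of the 10 genes kept its direction under the 4 other scalings and both pseudocounts, and stayed inside its own 95% counting interval. With the libraries scaled by total reads, 82.2% of the genes called were higher, against 78.5% as deposited. The numbers of genes past 2-fold moved with the filter and the rule for a call. For the 10 genes, the 3 calls became 1 (lower) with a mean level of at least 50 normalized counts, 0 when the whole interval had to lie beyond 2-fold, and 5 (3 higher, 2 lower) when it had to exclude no change. For the 31 genes of the family, the 8 calls became 13 (12 higher, 1 lower) without a filter, 5 (4 higher, 1 lower) with 10 reads in both libraries, 2 (1 each way) with a mean of at least 50 and 1 (higher) with the whole interval beyond 2-fold. The median log2 fold change of the family, 0.22, was 1.05 without a filter, 0.085 with 10 reads in both libraries and 0.032 with a mean of at least 50, and that of the partner genes, 0.14, was 0.2, 0.102 and 0.013. For the 59 partner genes, the 8 calls became 13 (11 higher, 2 lower), 5 (4 higher, 1 lower), 2 (both higher) and 4 (all higher) under the same 4 settings, and 19 (12 higher, 7 lower) when the interval had to exclude no change. For all tested genes, the 1783 calls became 4017 (2817 higher, 1200 lower), 747 (524 higher, 223 lower), 419 (278 higher, 141 lower) and 703 (604 higher, 99 lower) under those 4 settings, 6823 (3416 higher, 3407 lower) when the interval had to exclude no change, and 3293 (2279 higher, 1014 lower) at 1.5-fold. Stricter filters leave fewer genes to be called, and other causes were not tested. With the libraries scaled by total reads, the interval of Sema4c came to include no change, and whether the interval excluded no change was as before for the other 9 genes. Nrp2, Sema4a and Plxnb2 rest on fewer than 60 reads per library, so their fold changes are the least precise of the 10.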

Other observations

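Of the 8 family genes with a read but fewer than 10 in each library, 6 had more reads in the TSA library and 1 had more in the control. Among all 3470 such genes, 64.6% had more reads in the TSA library and 30.5% in the control, so nothing is read from the count. Plxna4 had 0 and 9 reads and Sema3a, a secreted neuropilin ligand, 0 and 8. Both were below the filter and were named after their values were seen, so their intervals support nothing. Sema3f had 1 and 6 reads and Sema4g 2 and 8, and their 95% intervals included no change. The interval for Sema6b (4 and 2 reads) and Sema6c (4 and 4) did so too. Sema3d and Sema5b, with no control reads, had 1 and 3 TSA reads. Plxna2, Plxnb3, Sema3b, Sema3c, Sema3e, Sema3g and Sema6a had no read in either library.

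Among partner genes below 10 reads in each library, Dpysl5, Dpysl3 and Vegfc had no control reads and 6, 4 and 4 TSA reads, and Met had 6 control and 3 TSA reads.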
